A study of Mus musculus with 17 samples.

Results

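The 42 genes described here carry out or license DNA replication in S phase, the part of the cell cycle in which the genome is copied. They were taken by symbol from 23284 gene symbols counted in 17 mouse tumours labelled as neuroendocrine tumours of the pituitary. All 42 were found and all 42 passed the filter on low counts in every comparison. RNA was sequenced from 9 tumours of the genotype Rb1/Trp53 and 8 of the genotype Rb1/Trp53/Crebbp, all from genetically engineered mice. Both genotypes therefore share engineered Rb1 and Trp53, and the second adds Crebbp, which encodes a histone acetyltransferase and transcriptional coactivator. No treatment or time point separates them, and the sources used here do not give the alleles, the Cre driver, the age or the sex of the animals. The libraries were split into 2 sets by the 2 hormone genes Pomc and Calca. In 10 Pomc-high libraries the Pomc count exceeded the Calca count (Rb1/Trp53 tumours T2 and T5 to T9, Rb1/Trp53/Crebbp tumours T5 to T8). In 7 Calca-high libraries the reverse held (Rb1/Trp53 tumours T1, T3 and T4, Rb1/Trp53/Crebbp tumours T1 to T4). The sets were made from these 2 counts, and the labels name no such grouping.

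Replication starts at origins that are licensed in G1, when the loading factors Cdc6 and Cdt1 place the MCM helicase on DNA. S-phase kinases then recruit GINS and Cdc45, the helicase unwinds the duplex, and primase and the polymerases copy both strands while the PCNA clamp and its RFC loader hold them in place. Most of these genes are classic targets of E2F transcription factors, which the Rb1 protein represses in resting cells. In tumours that lack functional Rb1, transcription of this programme is commonly released, and its mRNA level in bulk tissue also follows the share of cells that are cycling.

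Promoter sequence is shown first because E2F control is the feature these genes are known to share. RefSeq windows on GRCm38.p6 (250 bases before to 50 bases after the annotated start) were available for 34 of the 42 genes. Mcm4, Gmnn, Ccne2, Gins1, Gins2, Rfc2, Pole and Prim2 had none in that table. An E2F word (TTTGGCGC, TTTCGCGC, TTTCCCGC or TTTGCCGC on either strand) was present in 12 of the 34, or 35.3%. The same words were found for 4.39% of 10854 tested genes with a window, for 2.6% of 27025 genes and in 2.26% of all 32851 windows. The 12 genes were Mcm3, Mcm5, Mcm6, Mcm7, Cdc6, Cdt1, Gins3, Rfc3, Pola1, Pold1, Lig1 and Uhrf1. CCAAT, a word of general promoters, was in 19 of the 34 (55.9%) against 42.7% of the tested genes. The 4 stretches below hold the word upstream of the start in genes of 3 roles, with Mcm6 shown for its 3 matches between 110 and 47 bases before the start. Capitals mark the matched words, which overlap in Mcm5 and in the first block of Mcm6, and lower case the 30 bases or more around them. They lie at chr1:128359715-128359845 on the minus strand (Mcm6), chr8:75109326-75109397 on the plus strand (Mcm5), chr11:98907983-98908050 on the plus strand (Cdc6) and chrX:93632256-93632323 on the minus strand (Pola1). A match is a description of letters and was not related to binding.
Mcm6: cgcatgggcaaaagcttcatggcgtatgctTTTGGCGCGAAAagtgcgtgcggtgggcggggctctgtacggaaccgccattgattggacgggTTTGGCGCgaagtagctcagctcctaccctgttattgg
Mcm5: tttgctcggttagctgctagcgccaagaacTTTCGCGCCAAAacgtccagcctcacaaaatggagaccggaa
Cdc6: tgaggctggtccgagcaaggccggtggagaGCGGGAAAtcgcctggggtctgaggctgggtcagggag
Pola1: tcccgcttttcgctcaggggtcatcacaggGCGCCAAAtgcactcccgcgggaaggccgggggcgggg

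Depth was 8328297 to 28140755 counts on genes per library, with a median of 13456360. No member was at 0 in any library and the lowest single count of a member was 48. Levels below are in CPM, counts scaled by library size with TMM effective library sizes over all 17 libraries. Pomc took 10.6% to 27.8% of the counts in the Pomc-high set, where Tbx19 and Pax7, transcription factors of pituitary Pomc cells, reached at least 306 and 125 CPM in each library. In the Calca-high set Tbx19 stayed at or below 0.317 CPM and Pax7 at or below 0.183 CPM and Pomc at or below 64.4 CPM, so these markers were near 0 or far below the Pomc-high set despite the pituitary label. Calca took 4.03% to 16.5% of the counts there, with Ret at 126 to 427 CPM and Nkx2-1 at 189 to 331 CPM. The fitted difference of Crebbp itself between genotypes was -0.47 ± 0.23 in the Pomc-high set (adjusted p = 0.239, edgeR) and 0.60 ± 0.12 in the Calca-high set (adjusted p = 0.00723, edgeR). In the same order of sets, Trp53 was at -0.28 ± 0.18 and -0.84 ± 0.19 (adjusted p = 0.351 and 0.0116, edgeR). Rb1 was at 0.20 ± 0.12 and 0.29 ± 0.13 (adjusted p = 0.332 and 0.112, edgeR). Counts over a whole gene do not check a deletion of part of it. The labels do not say whether each tumour came from a separate animal, so the p-values cover the spread among these libraries alone, which may be technical.

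Averaged over the 42 genes, levels were lowest in the Pomc-high groups and highest in the Rb1/Trp53/Crebbp Calca-high group. On the log2 scale, the mean of the 42 genes after centring each gene on its own mean over the 17 libraries ran from -0.59 to -0.20 in the Rb1/Trp53 Pomc-high libraries and from -0.36 to 0.01 in the Rb1/Trp53/Crebbp Pomc-high libraries. It ran from 0.02 to 0.22 in the Rb1/Trp53 Calca-high libraries and from 0.56 to 0.65 in the Rb1/Trp53/Crebbp Calca-high libraries. The 2 Calca-high groups did not overlap each other or the Pomc-high libraries in this mean, while the 2 Pomc-high groups overlapped. By median CPM, 31 of the 42 genes had both Pomc-high groups lowest and Rb1/Trp53/Crebbp Calca-high highest, and the other 11 were Mcm2, Mcm4, Gmnn, Cdc7, Gins1, Gins3, Rfc1, Rfc2, Rpa2, Lig1 and Uhrf1. The Rb1/Trp53 tumour T6 was the lowest library of the 17 and the Rb1/Trp53/Crebbp tumour T6 the highest of the Pomc-high set. In bulk tumour RNA, fewer cells in S phase and less RNA of these genes per cell cannot be told apart.

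**Figure D1:**
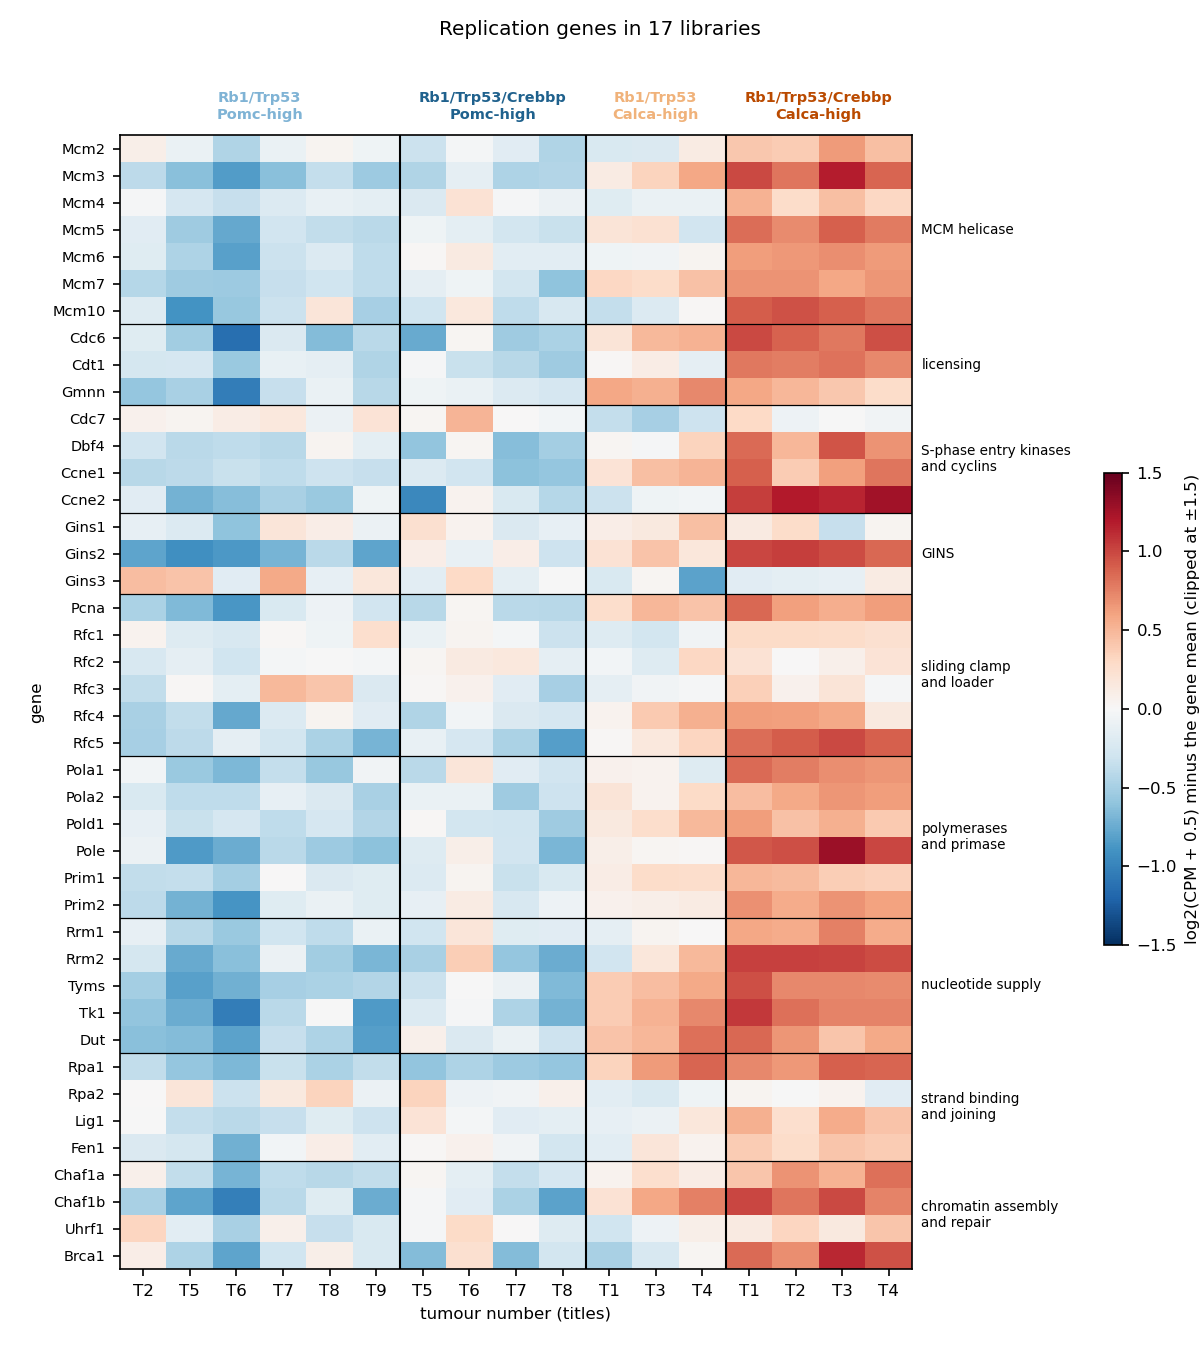
Heat map of the 42 replication genes (rows, by role) in 17 libraries (columns, by genotype and set, tumour number below), as log2(CPM + 0.5) minus the gene's mean, clipped at ±1.5. The Rb1/Trp53/Crebbp Calca-high group has the highest median in 37 genes, the exceptions being Gmnn, Cdc7, Gins1, Gins3 and Rpa2, and single libraries of other groups reach its range in further genes.

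Per kilobase of the longest annotated transcript, Pcna, which encodes the sliding clamp, was the most abundant member, with a median of 106 CPM per kb in the Rb1/Trp53 Pomc-high libraries and 213 CPM per kb in the Rb1/Trp53/Crebbp Calca-high libraries. Mcm10, whose product joins the helicase after licensing, was at the other end with 1.43 and 3.68 CPM per kb in the same groups. The products of Mcm2 to Mcm7 join in equal number in one ring, yet their mRNA levels per kb were not equal. In the Rb1/Trp53/Crebbp Calca-high libraries the medians were 61.6 for Mcm2, 50.7 for Mcm3, 46.1 for Mcm7, 43.0 for Mcm6, 33.5 for Mcm5 and 29.0 CPM per kb for Mcm4. Over the 4 libraries neighbours in this order overlapped, except Mcm3 with Mcm7 and Mcm6 with Mcm5. The lengths are from GENCODE M21 and not from the annotation used for counting, so this order is approximate.

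Within the Calca-high set, the Rb1/Trp53/Crebbp tumours had higher levels of most replication genes than the Rb1/Trp53 tumours. Of 42 genes, 27 rose and 0 fell at an adjusted p under 0.05 (edgeR quasi-likelihood test, 4 against 3 libraries), a share of 64.3% against a background of 36.2% of 14797 tested genes called in either direction, 19.1% higher and 17.1% lower. DESeq2 called 28 higher and 0 lower, and 31 members had an unadjusted p under 0.05 in edgeR, against a background of 47.1%. The median log2 fold change of the 42 was 0.46, beside -0.02 over all genes tested. In 30 of the 42 the Rb1/Trp53/Crebbp libraries were all above the Rb1/Trp53 libraries, where the background was 22.1%, and in 0 were they all below, where it was 22.3%. The helicase, the cyclin Ccne2, the catalytic polymerase subunits Pola1 and Pole and ribonucleotide reductase were among those that rose, while the clamp, single-strand binding and most clamp loader genes did not pass (Pcna, Rpa2, Rfc3 and Rfc4 passed with the length trend removed, as given below).

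All 7 genes of the MCM group, which encode the 6 subunits of the replicative helicase and its partner Mcm10, rose, by 0.32 to 1.12. Mcm6, a subunit of the helicase ring, was at 114, 116 and 123 CPM in the Rb1/Trp53 libraries T1, T3 and T4 and at 186, 188, 194 and 187 CPM in the Rb1/Trp53/Crebbp libraries T1 to T4. The groups were apart by more than the spread within either, and the fitted difference was 0.70 ± 0.07 (SE, adjusted p = 0.00107, edgeR). Mcm10 rose by 1.12 ± 0.13 and Mcm7 by 0.32 ± 0.08, the highest and lowest of the group, and Mcm7 lost its call without the Rb1/Trp53 tumour T3.

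Among the 3 licensing genes, Cdt1 and Cdc6 rose and Gmnn did not. Cdt1, which brings the helicase to the origin, stood at 37.0, 39.5 and 33.2 CPM in the Rb1/Trp53 libraries and at 63.6, 62.6, 64.5 and 60.6 CPM in the Rb1/Trp53/Crebbp libraries. Every Rb1/Trp53/Crebbp value lay above every Rb1/Trp53 value, with a fitted rise of 0.79 ± 0.09 (adjusted p = 0.00126). Cdc6, the loading ATPase, rose by 0.52 ± 0.12 from 14.6, 18.0 and 18.4 to 25.6, 23.8, 22.3 and 25.3 CPM. Gmnn, which encodes geminin, the inhibitor of Cdt1, differed by -0.16 ± 0.11 (adjusted p = 0.27) with 30.5, 29.6 and 33.9 against 30.5, 28.9, 27.1 and 24.7 CPM. Its libraries overlapped between genotypes while those of its target did not. With the length trend described below removed, Gmnn was at 0.22 (adjusted p = 0.109, edgeR), so the sign of its difference depended on that trend.

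Ccne2, a cyclin that activates Cdk2 at the start of S phase, had the largest fitted change of the 42 genes. It was at 15.8, 19.0 and 19.4 CPM in the Rb1/Trp53 libraries and at 41.4, 46.2, 44.4 and 48.2 CPM in the Rb1/Trp53/Crebbp libraries. That is a 2.52-fold rise (log2 1.33 ± 0.11, adjusted p = 5.86e-04), and the lowest Rb1/Trp53/Crebbp library stood well above the highest Rb1/Trp53 library. Its paralogue Ccne1 overlapped between genotypes, at 22.1, 26.3 and 27.2 against 35.9, 25.0, 29.3 and 33.5 CPM, with a difference of 0.31 ± 0.14 (adjusted p = 0.127), though it passed with the length trend removed (0.49, adjusted p = 0.0363). The kinase Cdc7 and its activator Dbf4, which phosphorylate the helicase to fire origins, rose by 0.46 ± 0.12 and 0.66 ± 0.15, and the call of Cdc7 was lost without the Rb1/Trp53 tumour T3.

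**Figure D2:**
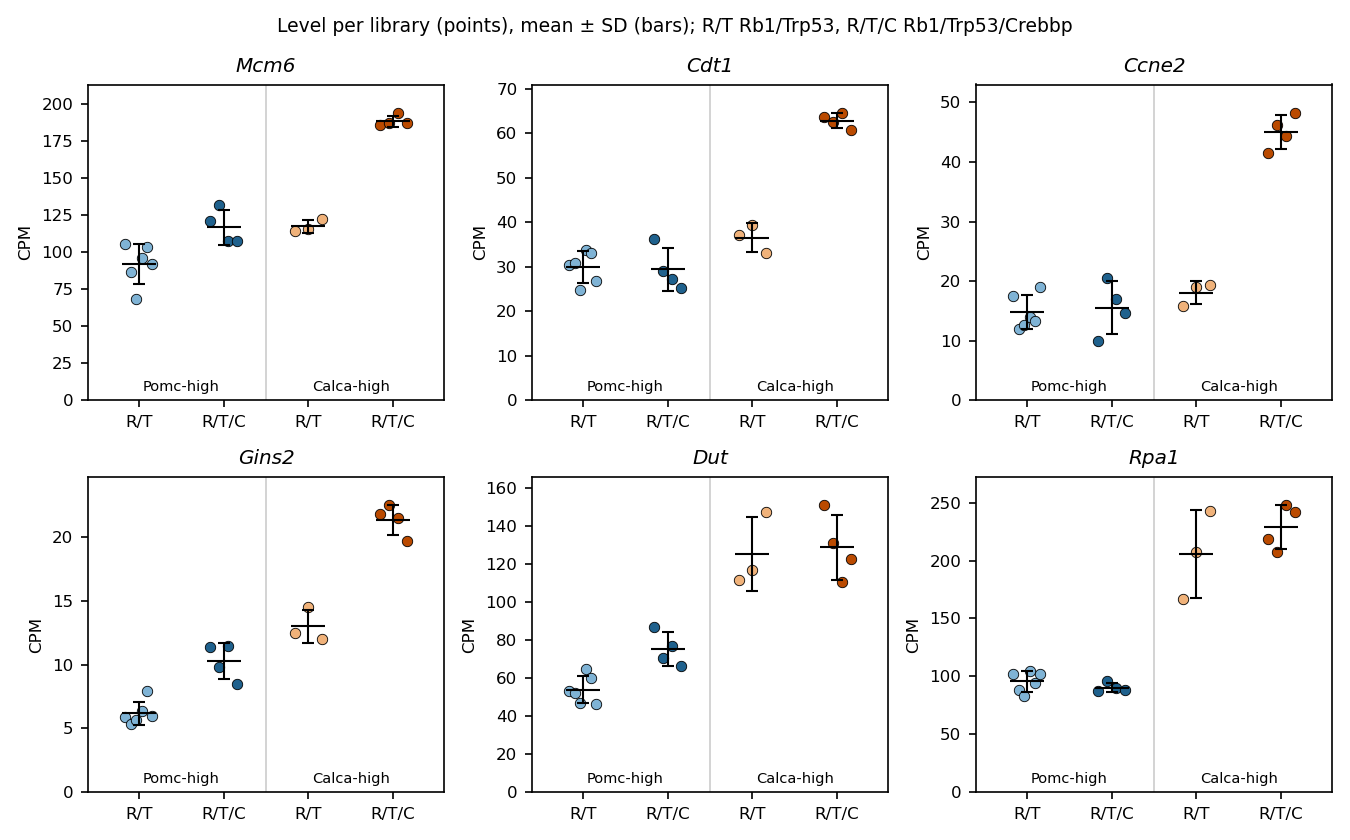
CPM in each library (points) with mean ± SD (bars) for Mcm6, Cdt1, Ccne2, Gins2, Dut and Rpa1, by genotype and set. Ccne2 and Cdt1 are raised in the Rb1/Trp53/Crebbp libraries of the Calca-high set, Gins2 in those of both sets, Dut in those of the Pomc-high set, and Rpa1 differs by set.

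Of the GINS genes, whose products bind the helicase to activate it, 1 of 3 rose. Gins2 was at 12.5, 14.5 and 12.0 CPM in the Rb1/Trp53 libraries and 21.8, 22.4, 21.4 and 19.7 CPM in the Rb1/Trp53/Crebbp libraries, a rise of 0.73 ± 0.12 (adjusted p = 0.0034) without overlap. Gins1 and Gins3 differed by -0.19 ± 0.20 and 0.24 ± 0.22 and overlapped between genotypes. With the length trend removed Gins1 was at 0.20 (adjusted p = 0.440, edgeR).

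Only 2 of the 6 clamp and loader genes passed. Rfc5, a small subunit of the clamp loader, was at 29.5, 32.5 and 36.4 CPM against 52.3, 54.8, 58.3 and 54.5 CPM and rose by 0.76 ± 0.09 (adjusted p = 0.00158). Rfc1, the large subunit, rose by 0.46 ± 0.08. Pcna did not overlap between genotypes, at 253, 296 and 283 against 382, 322, 306 and 323 CPM, but its difference of 0.28 ± 0.11 missed the threshold (adjusted p = 0.0779). Rfc2, Rfc3 and Rfc4 had differences of 0.10 to 0.24 with overlapping libraries.

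Of the 6 polymerase and primase genes, 4 rose. Pole, the catalytic subunit of the leading-strand polymerase, was at 30.3, 28.9 and 28.9 CPM in the Rb1/Trp53 libraries and at 54.9, 56.2, 70.1 and 57.3 CPM in the Rb1/Trp53/Crebbp libraries, a 2.05-fold rise (log2 1.03 ± 0.10, adjusted p = 0.00102). Pola1 rose by 0.79 ± 0.10, Prim2 by 0.56 ± 0.08 and Pola2 by 0.42 ± 0.09, all subunits of the polymerase that starts new strands. Pold1, the lagging-strand polymerase, differed by 0.21 ± 0.10 (adjusted p = 0.14) and Prim1, the catalytic primase, by 0.22 ± 0.08 (adjusted p = 0.0745).

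Nucleotide supply was split in the same way, with 3 of 5 genes higher. Rrm1, the large subunit of ribonucleotide reductase, was at 111, 126 and 122 CPM against 182, 181, 207 and 180.3 CPM and rose by 0.66 ± 0.09 (adjusted p = 0.00193). Rrm2, its S-phase subunit, rose by 0.87 ± 0.16 and the thymidylate synthase gene Tyms by 0.33 ± 0.10. Tyms kept its call in 2 of the 7 fits that each left out 1 library, those without the Rb1/Trp53 tumour T4 or the Rb1/Trp53/Crebbp tumour T2. Tk1, the salvage thymidine kinase, differed by 0.32 ± 0.12 (adjusted p = 0.0767), and Dut, the enzyme that keeps uracil out of DNA, by 0.05 ± 0.14 (adjusted p = 0.78).

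In the group that binds and joins strands, Lig1 and Fen1, which seal and trim Okazaki fragments, rose and the single-strand binding genes Rpa1 and Rpa2 did not pass. Lig1 was at 90.9, 93.4 and 112 CPM against 144, 118, 146 and 133 CPM, a rise of 0.47 ± 0.11 (adjusted p = 0.0127) that missed the threshold without the Rb1/Trp53 tumour T3 (0.43, adjusted p = 0.0512). Fen1 rose by 0.35 ± 0.10, and lost its call without the Rb1/Trp53 tumour T1 or the Rb1/Trp53/Crebbp tumours T3 or T4. Rpa1 and Rpa2 differed by 0.17 ± 0.13 and 0.15 ± 0.09.

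The chromatin and repair genes had 3 of 4 higher. Brca1, a homologous recombination factor, was at 14.7, 17.5 and 21.2 CPM against 38.0, 33.9, 46.0 and 40.9 CPM and rose 2.25-fold (log2 1.17 ± 0.15, adjusted p = 0.00181) with no overlap. Chaf1a, the large subunit of the histone chaperone CAF-1, rose by 0.50 ± 0.12 and Uhrf1, which helps copy DNA methylation, by 0.36 ± 0.12. Uhrf1 kept its call in 1 of 7 fits with a library left out, that without the Rb1/Trp53 tumour T4. Chaf1b, the partner of Chaf1a, differed by 0.37 ± 0.14 (adjusted p = 0.0672).

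Gene length moved with this comparison. Over 12922 tested genes with a length, the log2 fold change within the Calca-high set had a Spearman correlation of 0.464 with transcript length, and of 0.507 over the 42 members, given as descriptions across genes of the same libraries. The median of all genes ran from -0.42 for transcripts up to 1500 bases to 0.46 for those over 6000 bases. In the same 5 length classes the members' medians were 0.18, 0.36, 0.54, 0.51 and 1.10, and 40 of 42 members lay above the median of their class, the exceptions being Rfc2 and Rpa1. With the length trend removed from the fit, 31 members were higher and 0 lower, against 24.3% of all genes called in that fit, and 23 of the 31 were also called without it. Cdc6, Rfc1, Chaf1a and Uhrf1 lost the call and 8 genes gained it, namely Ccne1, Pcna, Rfc3, Rfc4, Prim1, Tk1, Rpa2 and Chaf1b. Pcna was then at 0.56 (adjusted p = 0.00693), Rfc3 at 0.57 (adjusted p = 0.00942) and Rfc4 at 0.52 (adjusted p = 0.0430). Pole and Brca1, the 2 members over 6000 bases, kept the call at smaller sizes. Pole was at 0.60 (adjusted p = 0.00447) in place of 1.03, and Brca1 at 0.78 (adjusted p = 0.0124) in place of 1.17. Without that correction the calls by class, from the shortest, were 0 of 5, 6 of 12, 13 of 15, 6 of 8 and 2 of 2 members. In the Pomc-high set the same correlation was -0.05 over all genes and 0.07 over the members.

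**Figure D3:**
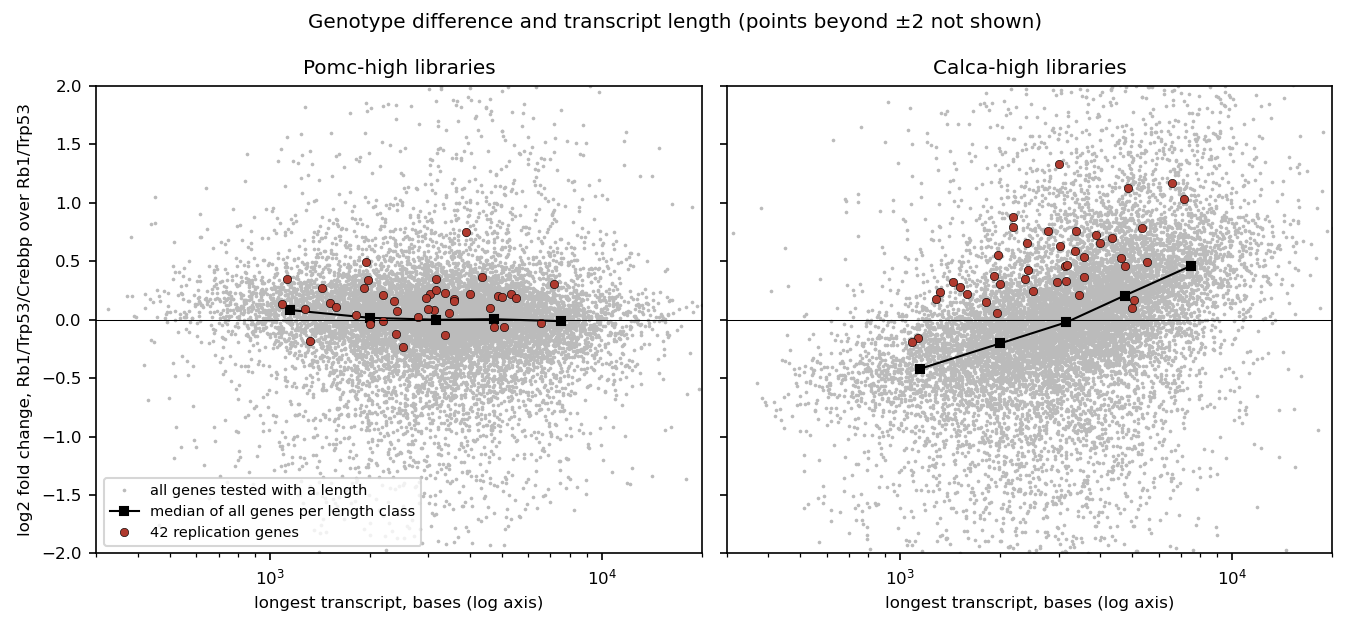
Log2 fold change of Rb1/Trp53/Crebbp over Rb1/Trp53 against transcript length (log axis) in the Pomc-high (left) and Calca-high (right) libraries, with all tested genes in grey, the median of each length class in black and the 42 replication genes in red. The black line climbs from -0.42 to 0.46 on the right and stays near 0 on the left, and 40 of 42 red points on the right lie above the median of their class.

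Other features also separated the Calca-high genotypes. The Rb1/Trp53 libraries held 20361712 to 28140755 counts on genes and the Rb1/Trp53/Crebbp libraries 8328297 to 15490074, and 15.9% to 16.5% against 18.5% to 21.7% of reads fell on no feature. Summed markers of other cells were lower in Rb1/Trp53/Crebbp, with 7 endothelial genes at 79.4 to 91.6 against 45.4 to 59.4 CPM (5 of 7 lower) and 9 lymphocyte genes at 18.5 to 40.1 against 5.28 to 11.0 CPM (1 of 2 tested lower). The 10 macrophage genes summed to 246 to 285 against 84.8 to 264 CPM (3 of 10 lower) and the 7 fibroblast genes to 551 to 869.5 against 186 to 625 CPM (0 of 7 called by edgeR). The 5 neuroendocrine genes were lower as well, at 11810 to 14940 against 5270 to 8153 CPM (4 of 5 lower), and so were the 4 thyroid C cell genes, at 117900 to 177000 against 34850 to 67860 CPM (3 of 4 lower). The macrophage and fibroblast sums overlapped between genotypes, and 17.1% of all genes tested were called lower in this comparison. Of the lymphocyte markers Ms4a1 was at 0 in every library and 5 further genes in some. The part of depth, of these markers and of the unassigned reads in the replication gene values was not tested.

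Within the Pomc-high set the replication genes differed little between genotypes. Gins2 and Dut were higher in Rb1/Trp53/Crebbp, and 0 of 42 genes fell (edgeR, 4 against 6 libraries). The 2 called genes are 4.76% of the members, against a background of 8.42% of 14010 tested genes called in either direction, 3.15% higher and 5.26% lower. With an unadjusted p under 0.05, where the background was 25.4%, there were 6 members, all higher, and DESeq2 called 3, adding Mcm6. The median log2 fold change was 0.16, beside 0.01 over all genes, and fell to 0.07 without the Rb1/Trp53/Crebbp tumour T6 and to 0.09 without the Rb1/Trp53 tumour T6. Libraries did not overlap in 3 members, Mcm6, Gins2 and Dut, all higher in Rb1/Trp53/Crebbp, where 3.93% of all genes did so, and 0 members were apart in the other direction, where 5.83% did.

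Gins2 had a lowest value of 5.38, a median of 5.93 and a highest value of 7.93 CPM in the 6 Rb1/Trp53 libraries, and was at 11.4, 9.84, 11.5 and 8.49 CPM in the Rb1/Trp53/Crebbp tumours T5 to T8. All 4 were above the Rb1/Trp53 range, a 1.69-fold rise (log2 0.75 ± 0.16, adjusted p = 0.0123). Without the Rb1/Trp53/Crebbp tumour T7 the fitted value was 0.70 with an adjusted p of 0.0502. Gins2 was thus the single member called in both sets, at nearly the same size, and its 50 to 133 counts per library make it one of the less deeply counted members.

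Dut ran from a lowest value of 46.5, a median of 53.0 and a highest value of 65.2 CPM in the Rb1/Trp53 libraries and was at 87.2, 70.9, 77.1 and 66.4 CPM in the Rb1/Trp53/Crebbp libraries. The groups were apart by a small margin, with a rise of 0.50 ± 0.11 (adjusted p = 0.0179). The call was lost without T5 (0.42, adjusted p = 0.0552) and without T7 (0.49, adjusted p = 0.0552) of the Rb1/Trp53/Crebbp tumours. In the Calca-high set Dut stood at 112, 117 and 148 against 151, 131, 111 and 123 CPM, overlapping.

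Mcm6 had a lowest value of 68.1, a median of 93.9 and a highest value of 105 CPM in the Rb1/Trp53 libraries and 121, 132, 107 and 108 CPM in the Rb1/Trp53/Crebbp libraries, which lay just above them. Its difference of 0.37 ± 0.12 did not pass (adjusted p = 0.0697). The other 6 MCM genes differed by -0.13 to 0.23, with all adjusted p-values at 0.214 or more. Gmnn differed by 0.34 ± 0.16 (adjusted p = 0.187), Prim2 by 0.34 ± 0.16 (adjusted p = 0.208), Lig1 by 0.26 ± 0.10 (adjusted p = 0.128), Chaf1b by 0.27 ± 0.18 (adjusted p = 0.386) and Rfc2 by 0.19 ± 0.09 (adjusted p = 0.213). Of the S-phase kinases and cyclins, Dbf4 came nearest to the threshold with -0.13 ± 0.17 (adjusted p = 0.699). Sums of endothelial and macrophage markers overlapped between genotypes here, and that of the lymphocyte markers did not. The 9 lymphocyte genes summed to 2.68 to 6.59 CPM in Rb1/Trp53 and 0.844 to 2.35 CPM in Rb1/Trp53/Crebbp (1 of 1 tested called lower). The 7 endothelial genes summed to 36.3 to 70.7 CPM in Rb1/Trp53 and 18.3 to 48.9 CPM in Rb1/Trp53/Crebbp (1 of 7 called lower). The 10 macrophage genes summed to 110 to 346 against 28.6 to 189 CPM (1 of 10 called lower). All 7 and all 10 had fitted values below 0, as had 6707 of the 14010 genes tested. Of all genes tested, 5.26% were called lower. Of the lymphocyte genes, 7 of 9 were at 0 in some of these libraries, and the part of such cells in the values above was not tested. The 5 neuroendocrine genes summed to 8878 to 10870 CPM in Rb1/Trp53 and 5924 to 8169 CPM in Rb1/Trp53/Crebbp (1 of 5 called lower). Their sums were thus lower without overlap in the Pomc-high set as well as in the Calca-high set.

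**Figure D4:**
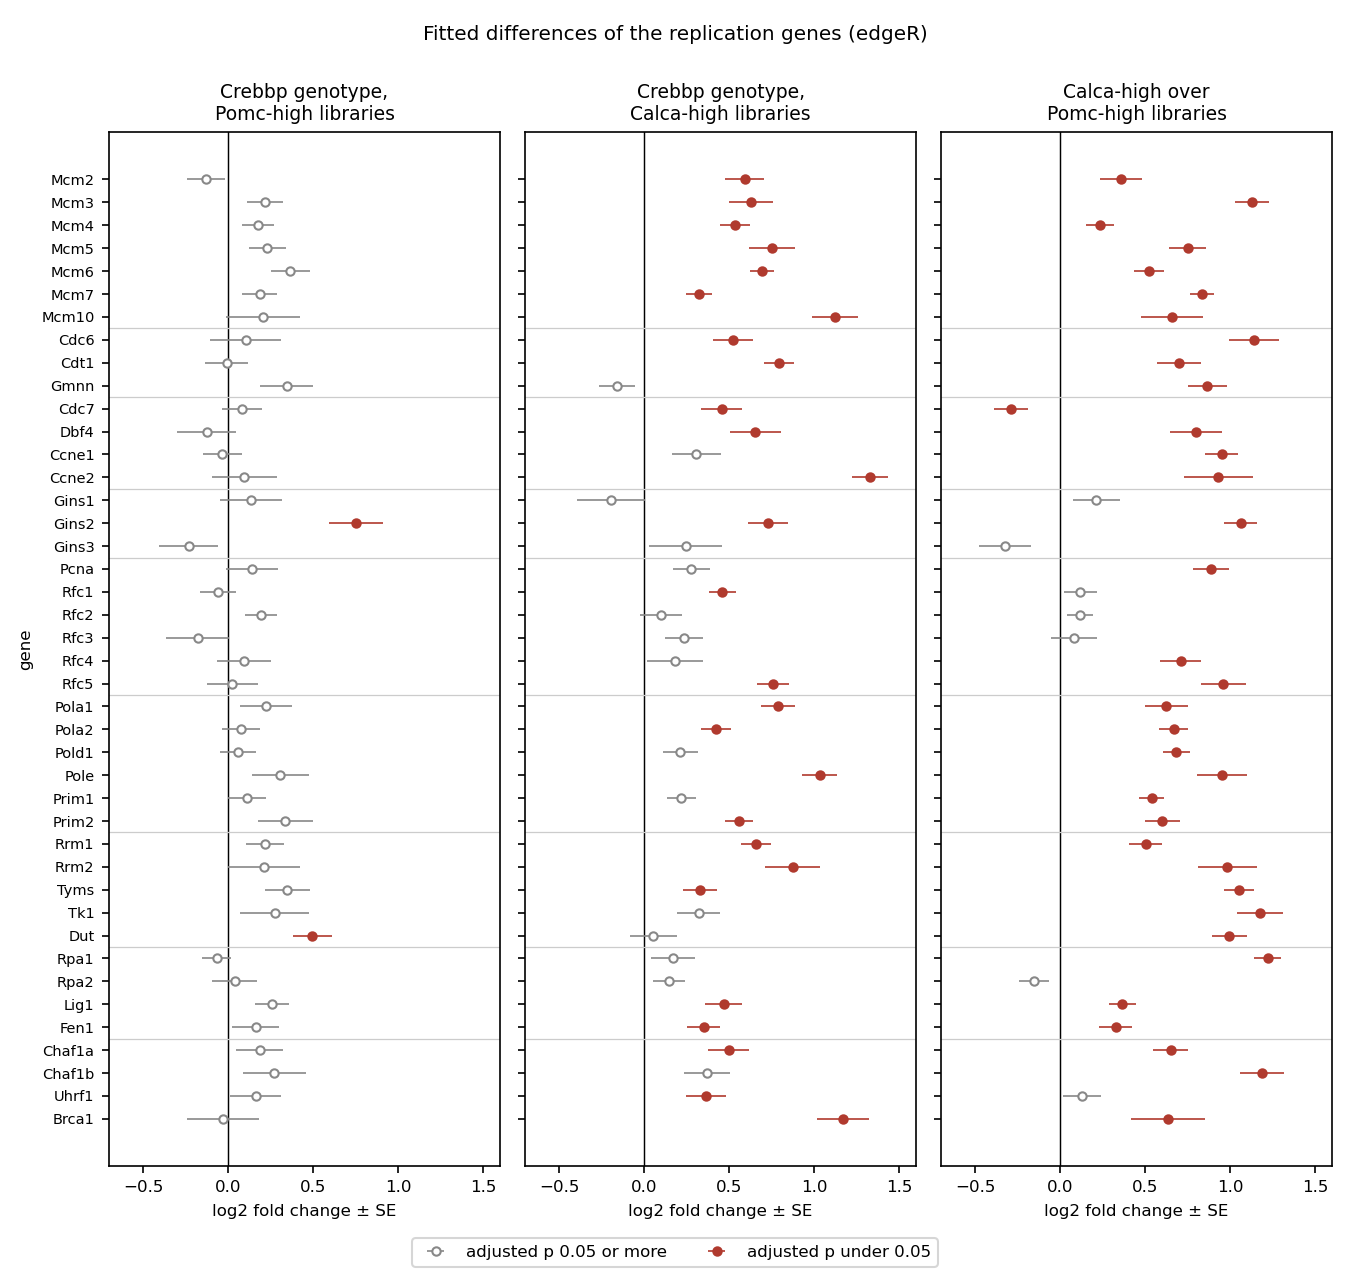
Fitted log2 fold changes with SE of the 42 genes for the genotype within each set (Rb1/Trp53/Crebbp over Rb1/Trp53) and for Calca-high over Pomc-high, with filled red points for adjusted p under 0.05 (edgeR). Filled points number 2 in the left, 27 in the middle and 35 in the right panel, where Cdc7 is the one below 0.

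Whether the genotype difference itself differed between the sets was tested with the interaction of genotype and set over all 17 libraries. Of the 42 genes, 10 had a larger rise in the Calca-high set and 0 a smaller one (edgeR), or 23.8%, close to the background of 22.9% of 15432 genes called in either direction, 12.8% in the positive and 10% in the negative. The 10 were Mcm2, Mcm5, Mcm10, Cdt1, Dbf4, Ccne2, Rfc1, Rfc5, Pole and Brca1, and 20 members had an unadjusted p under 0.05, against 37.1% of all genes. DESeq2 called 14, with 13 positive and 1 negative, Gmnn. The median interaction was 0.34. For Ccne2 it was 1.24 ± 0.26 (adjusted p = 0.00388), from 0.10 ± 0.19 in the Pomc-high to 1.33 ± 0.11 in the Calca-high set. For Cdt1 it was 0.81 ± 0.16 (adjusted p = 0.00313), from -0.01 ± 0.13 to 0.79 ± 0.09. Mcm2 changed from -0.13 ± 0.11 to 0.59 ± 0.11, a difference of 0.73 ± 0.17 (adjusted p = 0.00766). Gins2 and Dut, the genes called in the Pomc-high set, had interactions of -0.02 ± 0.19 and -0.44 ± 0.18 (adjusted p = 0.952 and 0.0884). The test called the 10 named genes alone and 32 members did not pass. The larger count of calls in the Calca-high set is therefore not by itself a difference between sets. The count of called genes was 4 without the Rb1/Trp53 tumour T1 and 6 without the Rb1/Trp53 tumour T3. It was 5, 6 and 6 without the Rb1/Trp53/Crebbp tumours T3, T7 and T8 and 16 without the Rb1/Trp53/Crebbp tumour T6. With the length trend removed 8 were called, 5 of them among the 10, against 14.7% of all genes. Mcm5, Mcm10, Rfc1, Pole and Brca1 then lost the call, with Pole at 0.25 (adjusted p = 0.455, edgeR). Mcm2, Cdt1, Ccne2 and Brca1 kept the call in each fit that left out 1 library, Rfc5 in 16 of 17 (not without the Rb1/Trp53 tumour T1) and the other 5 in 5 to 13 of 17, though Brca1 lost it with the length trend removed (0.79, adjusted p = 0.0766).

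Between the sets, with genotype in the fit, replication genes were higher in the Calca-high libraries. Of 42 genes, 34 were higher and 1, Cdc7, was lower (edgeR, 7 against 10 libraries). These 35 are 83.3% of the members, against a background of 60.1% of 15432 tested genes called, 31.1% higher and 28.9% lower. An unadjusted p under 0.05 was found for the same number of members and for 63.9% of all genes. The median log2 difference was 0.67 beside 0.01 over all genes. Libraries of the sets did not overlap in 17 members, all higher in Calca-high, where 11.6% of all genes did so, and 0 were apart in the other direction, where 10.9% did. Within the Rb1/Trp53 libraries alone 25 members were higher and 1 lower, where 54.7% of all genes were called, and within the Rb1/Trp53/Crebbp libraries alone 35 were higher and 0 lower, where 51.6% were. Mcm2, Mcm4, Mcm10, Cdt1, Ccne2, Pola1, Lig1, Fen1 and Brca1 lost the call in the Rb1/Trp53 libraries alone. The sets differ throughout in the hormone and lineage markers given above, so lineage and any other difference between the sets cannot be told apart. Fibroblast markers summed to 42.4 to 239.7 CPM in the Pomc-high and 186 to 869.5 CPM in the Calca-high libraries (5 of 7 higher), and lymphocyte markers to 0.844 to 6.59 and 5.28 to 40.1 CPM (2 of 2 tested higher), and their part in these values was not tested.

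All 7 MCM group genes were higher in the Calca-high set. Mcm7 ran from 56.3 to 82.0 CPM (median 66.5) in the Pomc-high libraries and from 104 to 137 CPM (median 129) in the Calca-high libraries. The sets were fully apart, with a difference of 0.84 ± 0.07 (adjusted p = 1.92e-08, edgeR). The other 6 differed by 0.23 to 1.13, with Mcm3 the largest and Mcm4 the smallest. Mcm2, at 0.36 ± 0.12, was -0.01 in the Rb1/Trp53 libraries alone. The calls of Mcm2 and Mcm4 were also lost without the Rb1/Trp53/Crebbp tumours T3 or T8, and that of Mcm4 also without T1.

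All 3 licensing genes were higher. Cdc6 ran from 5.53 to 13.0 CPM (median 8.85) in the Pomc-high libraries and from 14.6 to 25.6 CPM (median 22.3) in the Calca-high libraries, without overlap, a 2.21-fold difference (log2 1.14 ± 0.15, adjusted p = 2.87e-06). Geminin differed by 0.87 ± 0.12 and Cdt1 by 0.70 ± 0.13, so the inhibitor was higher along with its target here. Ccne1 ran from 12.2 to 16.5 CPM (median 14.7) and from 22.1 to 35.9 CPM (median 27.2) in the 2 sets, again without overlap, a difference of 0.95 ± 0.10 (adjusted p = 1.81e-07). The difference of Ccne2 by set was 0.93 ± 0.20, with libraries that overlapped. Cdc7, the kinase, was lower by -0.29 ± 0.10 (adjusted p = 0.0174) while its activator Dbf4 was higher by 0.80 ± 0.15. The call for Cdc7 was lost without the Rb1/Trp53 tumour T3 and in the Rb1/Trp53/Crebbp libraries alone.

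Gins2 ran from 5.38 to 11.5 CPM (median 7.15) in the Pomc-high and from 12.0 to 22.4 CPM (median 19.7) in the Calca-high libraries, a difference of 1.06 ± 0.10 (adjusted p = 3.86e-08), whereas Gins1 (0.21 ± 0.14) and Gins3 (-0.33 ± 0.15) did not pass. Pcna ran from 114 to 214 CPM (median 158) and from 253 to 382 CPM (median 306), a difference of 0.89 ± 0.11 (adjusted p = 1.39e-06) without overlap. Of the loader genes Rfc4 and Rfc5 were higher by 0.71 ± 0.12 and 0.96 ± 0.13, and Rfc1, Rfc2 and Rfc3 were at 0.08 to 0.12 and did not pass. Members of the GINS and loader complexes thus fell on both sides of the threshold between the sets as well as between genotypes.

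All 6 polymerase and primase genes were higher, by 0.54 to 0.95. Pold1 ran from 41.4 to 61.2 CPM (median 49.5) in the Pomc-high and from 66.6 to 93.2 CPM (median 81.9) in the Calca-high libraries, a difference of 0.68 ± 0.08 (adjusted p = 1.02e-06). All 5 nucleotide supply genes were higher too, by 0.50 to 1.18. Tyms ran from 17.5 to 30.9 CPM (median 22.1) and from 40.6 to 61.5 CPM (median 51.3), a 2.08-fold difference (log2 1.05 ± 0.09, adjusted p = 1.76e-08), with no overlap.

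Rpa1, which coats exposed single strands, had the smallest p of the 42 genes in this comparison. It ran from 82.8 to 105 CPM (median 92.5) in the Pomc-high and from 167 to 247 CPM (median 219) in the Calca-high libraries, a 2.33-fold difference (log2 1.22 ± 0.08, adjusted p = 7.47e-10). Its partner subunit Rpa2 differed by -0.15 ± 0.09 and overlapped. Lig1 and Fen1 were higher by 0.37 ± 0.08 and 0.33 ± 0.10. Chaf1b ran from 12.9 to 26.4 CPM (median 19.0) and from 31.1 to 54.1 CPM (median 45.6), a difference of 1.19 ± 0.13 (adjusted p = 4.00e-07), Chaf1a was higher by 0.65 ± 0.11 and Brca1 by 0.63 ± 0.22, and Uhrf1 (0.13 ± 0.11) did not pass.

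Over all 17 libraries without regard to set, as the labels group them, Mcm4 and Mcm6 were higher in the Crebbp genotype and 0 of 42 genes fell (edgeR, 8 against 9 libraries). The background was 3.86% of 14338 tested genes in either direction, 1.81% higher and 2.05% lower. Mcm4 ran from 62.8 to 78.9 CPM (median 71.8) in Rb1/Trp53 and from 68.6 to 115 CPM (median 94.8) in Rb1/Trp53/Crebbp, and Mcm6 from 68.1 to 123 CPM (median 104) and from 107 to 194 CPM (median 159). The ranges of both genes overlapped, and the fitted differences were 0.36 ± 0.10 (adjusted p = 0.0455) and 0.60 ± 0.15 (adjusted p = 0.035). An unadjusted p under 0.05 was found for 19 members and 21.8% of all genes, and DESeq2 called 11 members. The median was 0.39. With the set as a term of the fit, 14 members rose and 0 fell, or 33.3% of the 42 beside 18% of all genes. Leaving out 1 library gave between 0 and 9 members, and Mcm4 kept its call in 5 and Mcm6 in 8 of those 17 fits.

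Genes around this programme were described from 3 lists, with values from the fits without removal of the length trend. In the Calca-high genotype comparison the median of all genes ran from -0.42 for transcripts up to 1500 bases to 0.46 for those over 6000 bases. The part of length in the values of single listed genes was not tested. Of 41 measured further replication factors, 17 rose and 2 fell within the Calca-high set, with a median of 0.35. These calls are 46.3% of the list, beside 36.2% of all genes tested. Atad5, which unloads the clamp, rose by 1.14 ± 0.10, the chromatin remodeller Hells by 1.05 ± 0.09 and the checkpoint scaffold Topbp1 by 0.79 ± 0.08, and Pold4 and Rpa3, small accessory subunits, fell by 0.44 and 0.37. In the Pomc-high set 1 of the 41 rose, the origin recognition subunit Orc6 (0.45 ± 0.11, adjusted p = 0.0232), and 0 fell by edgeR. That is 2.44%, below the 8.42% of all genes tested. Between the sets 30 were higher and 3 lower, with the helicase activator Cdc45 at 0.88 ± 0.10. The called share was 80.5%, beside 60.1% of all genes tested.

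Of 24 genes of G2 and mitosis, 14 rose and 0 fell within the Calca-high set (58.3%, beside 36.2% of all genes tested), with a median of 0.68. Among them Mki67, a general marker of cycling cells, rose by 1.36 ± 0.16, the kinetochore motor Cenpe by 1.20 ± 0.13 and the checkpoint kinase Bub1 by 1.23 ± 0.17. Mki67 was at 158, 223 and 222 CPM in the Rb1/Trp53 and 544, 474, 575 and 446 CPM in the Rb1/Trp53/Crebbp libraries. In the Pomc-high set 1 of 24 rose, the spindle gene Nusap1 (0.60 ± 0.12, adjusted p = 0.0104), or 4.17% beside 8.42% of all genes tested. Between the sets all 24 were higher in Calca-high, where 31.1% of all genes were. Mitotic and replication genes were thus higher in the same comparisons, and the share of cycling cells was not measured.

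Of the 25 genes of Rb, E2F and G1 control, 5 were up and 4 down within the Calca-high set, a share of 36% that is near the 36.2% of all genes tested. E2f7, a repressive E2F, rose by 0.84 ± 0.12. The D cyclins Ccnd2 and Ccnd1, which drive the kinases that inactivate Rb1, fell by 1.65 ± 0.31 and 0.79 ± 0.18, and their partner Cdk4 fell by 0.40. Ccnd2 was at 49.6, 31.8 and 18.4 CPM in the Rb1/Trp53 and 9.09, 9.29, 10.8 and 12.7 CPM in the Rb1/Trp53/Crebbp libraries, so these cyclin D genes fell in the tumours in which Ccne2 rose. In the Pomc-high set 1 of 25 rose, the inhibitor Cdkn1c (0.56 ± 0.15, adjusted p = 0.0341), or 4% beside 8.42% of all genes tested. Between the sets 13 were higher and 5 lower in Calca-high (72%, beside 60.1% of all genes tested), with E2f8 at 2.35 ± 0.18, the inhibitor Cdkn1a at 1.57 ± 0.16 and E2f1 at 0.88 ± 0.09.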

How the data were processed

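Polyadenylated RNA from each tumour was sequenced (TRIzol extraction, oligo-dT selection, NEBNext Ultra kit, per the labels' protocols). The submitters' processing notes name bcl2fastq 1.8.2, TopHat2 2.0.12, HTSeq 0.6.1 and the build mm9 (annotation and strand setting not given in the sources used here). Overlapping or antisense genes therefore cannot be told apart. Each tumour has 1 deposited table of raw counts per gene symbol, whose 5 summary rows were left out. Genes held 64.5% to 78.3% of each table and reads on no feature 11.7% to 21.7%. No 2 tables of a group held the same library (chi-square per degree of freedom of at least 8.30 over 30 pairs).

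Genes were filtered (filterByExpr, minimum count 10), scaled by TMM and tested in edgeR 4.0.16 (quasi-likelihood F test, robust) under R 4.3.3. P-values were adjusted by Benjamini-Hochberg over all tested genes, with a threshold of 0.05. Fold changes are log2 of Rb1/Trp53/Crebbp over Rb1/Trp53, or Calca-high over Pomc-high with genotype in the fit, and SEs were obtained by dividing that value's size by the square root of F. Each set was fitted on its own libraries. The members, lists, sets and tests were chosen with earlier results of these data known. Named members are those with the smallest p in each role group and comparison, besides counts and ranges for the rest. From each surrounding list up to 3 genes with the smallest p were named. Mki67 and Ccnd2 are given per library, and Pold4, Rpa3 and Cdk4 are named, by choice after their values were seen. The same holds for the members quoted beside the named ones. Alternatives were DESeq2 1.42.0 size factors and test, upper-quartile scaling, no filter, 1 fit of 4 groups, a replicate block, each library left out, and, added after seeing the data, removal of length and GC trends and each genotype alone. Lengths and GC are those of the longest coding transcript in GENCODE M21 (GRCm38). The edgeR script was tested on simulated data.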

Additional observations from a re-analysis of the deposited data

Results flagged for a closer look

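Values of single libraries stood far from the rest of their group in 13 of 126 tests of members in groups of 4 or 6 libraries, where chance flags about 1 in 20. In the Rb1/Trp53/Crebbp Pomc-high group the tumour T6 was the highest for 5 genes. It had 73.6 CPM of Mcm3 against 58.5 to 59.5 in the others, 44.6 CPM of Cdc7 against 30.1 to 31.8, and 11.7 CPM of Dbf4 against 7.16 to 7.85. It also had 214 CPM of Pcna against 157 to 159 and 40.0 CPM of Rrm2 against 18.4 to 21.9. In the Rb1/Trp53/Crebbp Calca-high group the tumour T3 was lowest for Mcm7 at 129 CPM (others 136 to 137) and highest for Pole at 70.1 CPM (others 54.9 to 57.3) and Rrm1 at 207 CPM (others 180.3 to 182). The tumour T4 of that group was highest for Gins3 at 13.6 CPM (others 11.0 to 11.3) and lowest for Rfc4 at 17.9 CPM (others 24.1 to 25.2) and Rrm2 at 61.3 CPM (others 63.1 to 63.4). The tumour T1 of that group was highest for Tyms at 61.5 CPM (others 51.3 to 51.5). In the Rb1/Trp53 Pomc-high group the tumour T2 was highest for Chaf1a at 26.4 CPM (others 15.3 to 19.3).

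The genotype difference was larger in the Calca-high than in the Pomc-high set for 10 members by the interaction test of edgeR, on the log2 scale. The MCM genes were Mcm2 at 0.73, Mcm5 at 0.53 and Mcm10 at 0.92. Among the licensing and S-phase entry genes it was 0.81 for Cdt1, 0.78 for Dbf4 and 1.24 for Ccne2. It was 0.53 for Rfc1, 0.74 for Rfc5, 0.73 for Pole and 1.20 for Brca1. Their share of the 42 genes was close to the share of all genes tested, as given above. Mcm5, Mcm10, Rfc1, Pole and Brca1 lost the call with the length trend removed.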

How the results depend on the processing

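Counts of called members are given first. Within the Calca-high set the 27 calls became 22 to 29 with 1 library left out and 18 to 31 under the other settings, all higher, and 16 of the 27 genes were called in every fit run. Within the Pomc-high set the 2 calls became 0 to 3 with 1 library left out, 0 without the Rb1/Trp53/Crebbp tumour T7 and 1 without T5, and 4 with length and GC trends removed (Mcm6 and Lig1 added). Between the sets the 35 calls became 33 to 36 with 1 library left out, and the difference of Mcm2 reversed to -0.01 in the Rb1/Trp53 libraries alone. The interaction gave 10 calls, or 4 to 16 with 1 library left out. Over all libraries 2 became 1 without a filter, 11 with the DESeq2 test, 14 with the set as a term and 0 to 9 with 1 library left out. The cause of these shifts was not tested.

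Tumour numbers in the titles recur in both genotypes. Deviations of same-numbered tumours had r from -0.155 to 0.126 over 3 pairs in the Calca-high and from -0.134 to 0.204 over 4 pairs in the Pomc-high set. Differently numbered pairs ran from -0.29 to 0.243 and from -0.208 to 0.241. No pairing was seen, but so few pairs cannot settle whether the numbers mark one. With the number as a replicate block, members called were 18 in the Calca-high set, 0 in the Pomc-high set, 0 between the sets, 3 for the interaction and 6 over all libraries, where 18.2%, 2.53%, 6.14%, 8.12% and 3% of all genes were called. In that block the difference between the sets for Mcm4 reversed to -0.06 and for Lig1 to -0.13. By construction that fit rests on tumour number 2, the single number with a library in each set. Precision is limited most for Gins1, Gins2, Cdc6 and Mcm10, whose lowest counts were 48, 50, 52 and 58.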
